A study of Mus musculus with 4 samples.

Results

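Transcripts of 10 genes that mark mast cells and basophils were followed in leukocytes of the mouse ovary, with or without gonadotropin. The 10 were the proteases Cpa3, Cma1, Mcpt4, Tpsb2, Mcpt2 and Mcpt8, the receptors Fcer1a and Kit, the histamine-forming enzyme gene Hdc and the transcription factor gene Gata2, taken by symbol from the 32285 genes of the count table. All 10 were found. Female C57BL/6J mice aged 10 to 12 weeks received gonadotropin (5 mice) or saline (5 mice, labelled untreated), and ovaries were taken 48 h later; which gonadotropin and what dose are not given in the sources used here. From each mouse's ovaries live CD45+ leukocytes were collected by sorting and given a hashtag of their own. Each group's 5 mice then went into 1 droplet library (10x Genomics 3' v3), so treatment and library cannot be told apart.

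Mast cells are tissue-resident leukocytes that store histamine, heparin and a large load of proteases in granules and release them when IgE bound to its high-affinity receptor is cross-linked. Their growth and survival depend on the receptor tyrosine kinase Kit. Connective tissue mast cells of the mouse store the carboxypeptidase encoded by Cpa3, the chymases encoded by Cma1 and Mcpt4 and the tryptase encoded by Tpsb2, whereas mucosal mast cells are known for chymases such as that of Mcpt2. Basophils circulate in blood, share the IgE receptor and histamine synthesis with mast cells, and in the mouse are marked by the protease encoded by Mcpt8. In the ovary mast cells lie mainly in the stroma around vessels.

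The 6 proteases fall into 3 places in the genome (GRCm38.p6). Cma1 (chr14:55941451-55944675), Mcpt2 (chr14:56021584-56044635), Mcpt4 (chr14:56059744-56062310) and Mcpt8 (chr14:56082163-56085499) are neighbours in a serine protease gene cluster, Cpa3 lies at chr3:20215616-20242209 and Tpsb2 at chr17:25366308-25368096. Fcer1a lies at chr1:173221269-173227232, Kit at chr5:75574987-75656722, Hdc at chr2:126593659-126624025 and Gata2 at chr6:88193891-88207032. The chromosome 14 genes are related in sequence, and so are Tpsb2 and Tpsab1; how reads common to such relatives were counted is not given in the sources used here.

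The promoter windows of 4 proteases are shown because these genes were read together in some cells and apart in others. Each runs from 250 bases before the RefSeq start site to 50 after it (GRCm38.p6, minus strand, 5′ to 3′), and capitals mark the GATA letters AGATAA or TGATAA, which GATA factors such as the product of Gata2 are known to bind. The windows are chr3:20242132-20242431 for Cpa3, chr14:55944626-55944925 for Cma1, chr14:56062261-56062560 for Mcpt4 and chr14:56085148-56085447 for Mcpt8.
Cpa3: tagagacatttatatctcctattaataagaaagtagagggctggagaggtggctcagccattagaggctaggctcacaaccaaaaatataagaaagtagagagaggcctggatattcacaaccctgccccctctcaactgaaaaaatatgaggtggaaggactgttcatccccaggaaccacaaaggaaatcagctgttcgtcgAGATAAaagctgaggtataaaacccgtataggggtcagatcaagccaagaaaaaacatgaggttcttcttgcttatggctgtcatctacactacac
Mcpt4: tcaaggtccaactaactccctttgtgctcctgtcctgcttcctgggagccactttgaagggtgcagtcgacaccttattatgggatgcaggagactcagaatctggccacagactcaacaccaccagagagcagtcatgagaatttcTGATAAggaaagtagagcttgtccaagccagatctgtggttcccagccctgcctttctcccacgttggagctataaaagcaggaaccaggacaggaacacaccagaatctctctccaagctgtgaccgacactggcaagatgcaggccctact
Cma1: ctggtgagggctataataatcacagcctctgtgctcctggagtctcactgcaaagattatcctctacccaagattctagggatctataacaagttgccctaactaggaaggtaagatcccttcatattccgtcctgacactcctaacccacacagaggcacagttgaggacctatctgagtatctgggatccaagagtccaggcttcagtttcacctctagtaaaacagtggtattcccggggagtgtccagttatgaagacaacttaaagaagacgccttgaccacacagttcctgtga
Mcpt8: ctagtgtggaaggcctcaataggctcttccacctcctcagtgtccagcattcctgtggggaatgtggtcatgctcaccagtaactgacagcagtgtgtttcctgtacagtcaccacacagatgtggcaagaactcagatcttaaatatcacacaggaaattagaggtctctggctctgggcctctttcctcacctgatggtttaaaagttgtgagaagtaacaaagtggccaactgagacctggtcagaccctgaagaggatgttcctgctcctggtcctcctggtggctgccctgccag

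Counting both strands, on which these letters read TTATCT when reversed from the first and TTATCA when reversed from the second, 18.6% of 32851 RefSeq mouse promoters of this length hold them. The window of Cpa3 holds AGATAA at position -46 from the start site and that of Mcpt4 holds TGATAA at -103, while the windows of Cma1 and Mcpt8 hold no such letters. The window of Fcer1a, not printed, holds TTATCT at -92. Also searched on both strands were the M-box letters CACATG, bound by the mast cell factor Mitf and present in 14.2% of promoters, and the T-box letters TCACAC, bound by Tbx21 and Eomes and present in 14.5%. CACATG was found at -208 of Fcer1a, and TCACAC at -103 of Mcpt8 and at 41 of 1 of the 2 Gata2 start sites, counted from 1 at the start site. The searched letters overlap at none of these matches. A match is a description, and a window without one lacks these letters and no more.

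The table held 6468 barcodes, 3253 of the gonadotropin and 3215 of the untreated library. The hashtag calls gave 2491 and 2540 single-hashtag barcodes, 693 and 655 doublets and 69 and 20 barcodes without a hashtag. Transcripts are counted as UMIs (unique molecular identifiers). Cells were kept where a barcode had a single hashtag, 500 genes or more, and a mitochondrial share of its UMIs below 10%, giving 2423 gonadotropin and 2495 untreated cells, or 290 to 828 cells per gonadotropin mouse and 296 to 726 per untreated mouse. Summed UMIs ran from 2608262 to 7097779 per gonadotropin mouse and from 2559097 to 6500466 per untreated mouse. The libraries had 4 barcode sequences in common, and 0 of them belonged to a mast or basophil barcode.

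Mast cells were rare in the sorted leukocytes. A barcode was called mast when Cpa3, Cma1, Mcpt4 and Tpsb2 together reached 10 UMIs, and this held for 28 of 6468 barcodes, 12 gonadotropin and 16 untreated. A barcode was called basophil when Mcpt8 reached 3 UMIs without the mast call, and this held for 2, 1 in each library. Since these UMIs made the calls, their levels in the called barcodes are a description. Just below the mast limit lay 7 barcodes with 7 to 9 UMIs, 6 of them with Cma1 as the sole one of the 4 genes. Just above it lay 3 with 10 to 14 UMIs, 2 of them with Cma1 alone. From 15 to 33 UMIs there was 1 barcode and from 34 UMIs on there were 24, none of them with Cma1 alone.

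The 28 mast barcodes were of 3 kinds, a division made after their values were seen. The first kind, 22 barcodes (8 gonadotropin, 14 untreated), had Mcpt4 and Tpsb2 and no Mcpt8, and is called the granule type here. The second, 4 barcodes (3 gonadotropin, 1 untreated), had Mcpt8 together with Cpa3. The third, 2 barcodes (1 in each library), had Cma1 and none of the other 9 genes.

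**Figure D1:**
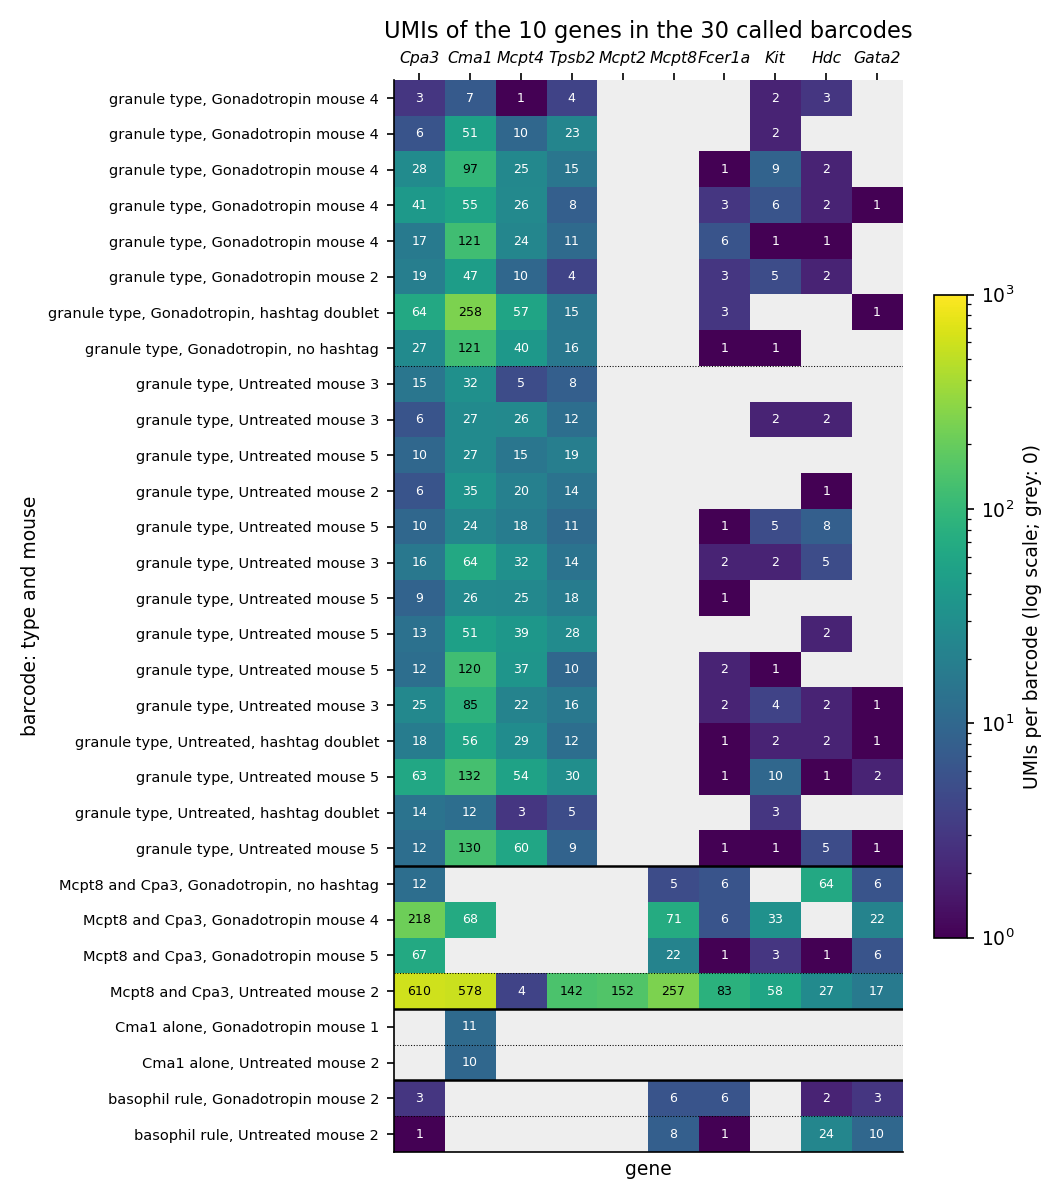
UMIs (log colour scale, number printed, grey for 0) of the 10 genes (columns) in each of the 30 called barcodes (rows, gonadotropin above untreated within each kind). The 22 granule-type rows hold Cpa3, Cma1, Mcpt4 and Tpsb2 and are empty for Mcpt2 and Mcpt8, and the Untreated mouse 2 row of the second kind holds all 10 genes.

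The granule type carried the proteases of connective tissue mast cells. Cma1 had 7 to 258 UMIs (median 76) in the 8 gonadotropin barcodes and 12 to 132 (median 43) in the 14 untreated barcodes. Mcpt4 had 1 to 57 UMIs (median 24.5) in the gonadotropin barcodes and 3 to 60 (median 25.5) in the untreated ones. Cpa3 had 3 to 64 UMIs (median 23) in the gonadotropin barcodes and 6 to 63 (median 12.5) in the untreated ones, and Tpsb2 had 4 to 23 and 5 to 30 UMIs with a median of 13 in each. The barcodes of the libraries overlapped for all 4 genes. The 4 genes made up 2.96% to 13.3% of all UMIs of a gonadotropin granule barcode (median 8.35%) and 1.46% to 13.2% of an untreated one (median 9.47%), against 0.00235% of the UMIs of the 4901 kept cells without a call.

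Mcpt2 and Mcpt8 were at 0 in all 22 granule-type barcodes. Their 35184 UMIs in sum allow up to 3 counts of either gene. Among the receptors, Kit had UMIs in 7 of 8 gonadotropin and 9 of 14 untreated granule barcodes, at most 9 and 10 UMIs. Fcer1a, the IgE-binding chain of the high-affinity IgE receptor, had UMIs in 6 of 8 gonadotropin and 8 of 14 untreated barcodes, at most 6 and 2 UMIs. Hdc, which makes histamine from histidine, had UMIs in 5 of 8 gonadotropin barcodes and 9 of 14 untreated ones, at most 3 and 8 UMIs. Gata2 had a UMI in 2 of 8 gonadotropin and 4 of 14 untreated barcodes.

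Granule-type barcodes held little other RNA. Their median depth was 1550 UMIs (506 to 3625) and 667.5 genes, against 7338 UMIs and 2614 genes in the kept cells without a call. Ptprc, which encodes the CD45 used in the sort, had 5 UMIs in 4 of the 22, or 142 CPM (counts per 1e6 UMIs), against 1397 CPM in the uncalled cells. Their median mitochondrial share was 5.24%, against 2.09%, and their median hashtag count 1149, against 1417. Of the 22, 8 had under 500 genes (2 gonadotropin, 6 untreated), and these included the 2 with 10% or more mitochondrial UMIs. Another 4 were hashtag doublets or had no hashtag (2 gonadotropin, 2 untreated), which left 4 of 8 gonadotropin and 6 of 14 untreated granule barcodes among the kept cells. The part of depth, RNA quality or free granule RNA in these barcodes was not tested. In the plot of depth, every granule-type barcode lies to the left of the median uncalled cell.

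**Figure D2:**
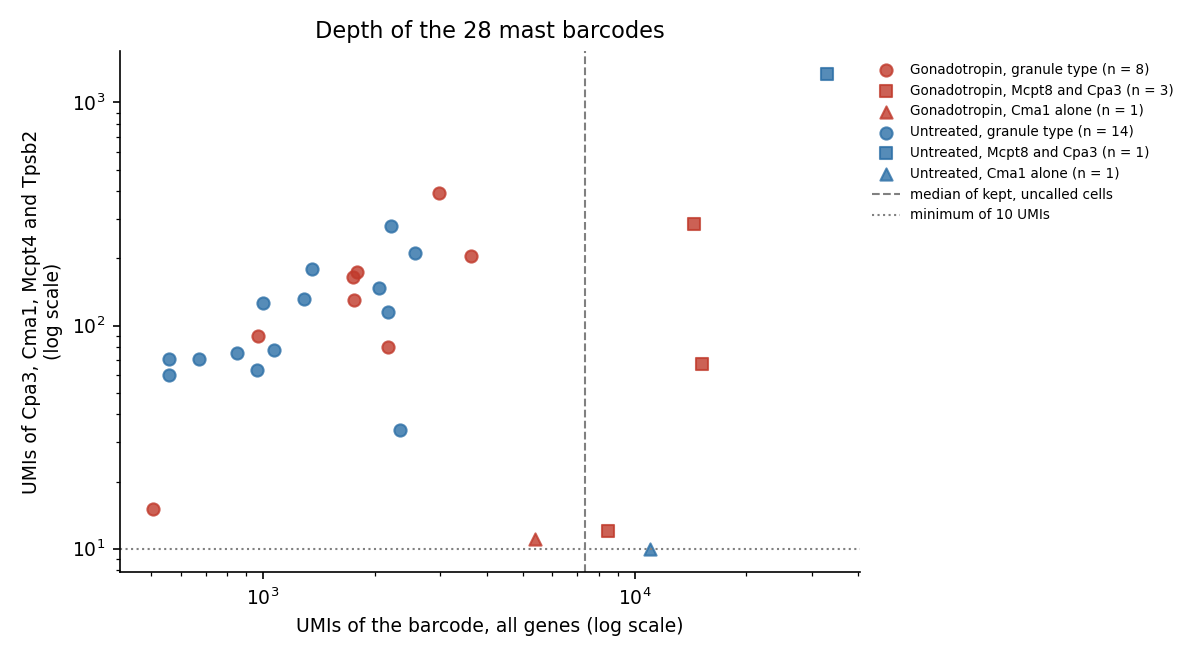
Total UMIs of each of the 28 mast barcodes (x axis, log scale) against its UMIs of Cpa3, Cma1, Mcpt4 and Tpsb2 (y axis, log scale), by group (colour) and kind (symbol). The 22 granule-type barcodes lie between 506 and 3625 UMIs, left of the dashed line at the median of 7338 UMIs of kept cells without a call.

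Markers of other leukocytes were read in the granule type. The protease gene Prss34, which is on the basophil list, had 11 of its 14 UMIs there, in 5 of the 22 barcodes. It had 0 in the 2 basophil barcodes and 0 in the 4 with Mcpt8 and Cpa3. Of other genes on the basophil list, the granule type had 5 UMIs of Il4, 1 of Cd200r3 and 0 of Il3ra and Mcpt8. Of the plasmacytoid dendritic cell list 1 of 4 genes had UMIs (Bst2, 11), and of the plasma cell list 1 of 5 (Xbp1, 5). Of the monocyte list it was 1 of 6 (Plac8, 4), and all other genes of these lists were at 0. B cell markers had 7 UMIs over all 22 barcodes (4 of 10 genes, 0 to 5 UMIs in a barcode), T cell markers 2 UMIs (2 of 5 genes), and the macrophage, NK cell and ILC3 marker lists had none. The defining neutrophil genes S100a8 and S100a9 were at 0, although Hdc, which is also on the neutrophil list, had 38 UMIs. Of mast cell genes outside the rule, Mrgprb1, a receptor of the Mas-related family, had 15 UMIs in 7 of 8 gonadotropin barcodes and 21 UMIs in 9 of 14 untreated ones. Tph1, which starts serotonin synthesis, had 35 UMIs in 8 of 8 gonadotropin barcodes and 43 UMIs in 12 of 14 untreated ones. Il1rl1, the receptor for IL-33, had 14 UMIs in 5 of 8 and 18 UMIs in 9 of 14.

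The second kind combined mast and basophil genes in deep barcodes (median 14839 UMIs). The barcode of Untreated mouse 2 had all 10 genes, with 610 UMIs of Cpa3, 578 of Cma1, 257 of Mcpt8, 152 of Mcpt2, 142 of Tpsb2, 83 of Fcer1a, 58 of Kit, 27 of Hdc, 17 of Gata2 and 4 of Mcpt4. It alone held the 152 Mcpt2 UMIs of the series, 68.4% of those of Mcpt8 and 52.5% of those of Fcer1a. It was a single-hashtag barcode with 32883 UMIs and 6102 genes. Kept cells without a call had a median of 7338 UMIs and reached 46136, and untreated hashtag doublets had a median of 13473. Because hashtags were given per mouse, a single hashtag cannot tell apart cells of the same mouse. Whether this barcode held several cells was not tested. The barcode of Gonadotropin mouse 4 had 218 UMIs of Cpa3, 71 of Mcpt8, 68 of Cma1, 33 of Kit, 22 of Gata2 and 6 of Fcer1a, and none of Mcpt4, Tpsb2, Mcpt2 or Hdc. That of Gonadotropin mouse 5 had 67 UMIs of Cpa3, 22 of Mcpt8, 6 of Gata2 and 3 of Kit, and none of Cma1, Mcpt4 or Tpsb2.

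The fourth barcode of this kind, a gonadotropin barcode without a hashtag, had 64 UMIs of Hdc, 12 of Cpa3, 6 each of Fcer1a and Gata2 and 5 of Mcpt8, and no Kit or Cma1. It had 24 UMIs of Cd200r3, a basophil receptor, while the 3 tagged ones had 8 and 2 (gonadotropin) and 16 (untreated). Cyp11a1, a steroid-forming gene on the luteal and theca list, had 37 UMIs over the 4. Of the other genes on that list Star had 1 UMI, and Cyp17a1 and Lhcgr had 0. Cyp11a1 also had 12 UMIs in the 2 basophil barcodes and 5 in the granule type. Over the 4 barcodes 7 of 8 basophil markers and 10 of 12 mast cell markers had UMIs, as did Cd34, a progenitor surface protein, with 14 UMIs and Gzmb with 170. The NK gene Ncr1 had 1 UMI, and the T cell markers had none.

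The 2 basophil barcodes carried Gata2, Fcer1a, Hdc and Mcpt8 with little Cpa3. The barcode of Gonadotropin mouse 2 had 6 UMIs each of Mcpt8 and Fcer1a, 3 of Gata2, 3 of Cpa3 and 2 of Hdc. The barcode of Untreated mouse 2 had 24 UMIs of Hdc, 10 of Gata2, 8 of Mcpt8 and 1 each of Fcer1a and Cpa3. Both had 0 UMIs of Cma1, Mcpt4, Tpsb2, Mcpt2 and Kit, and 4 and 9 UMIs of Cd200r3.

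The basophil rule left out barcodes with the same genes and less Mcpt8. UMIs of Fcer1a, Gata2 and Hdc together, a criterion chosen after the values were seen, occurred in 6 barcodes without a call, 3 in each library. They were from Gonadotropin mouse 1, Gonadotropin mouse 5 (2 barcodes), Untreated mouse 4, Untreated mouse 5 and an untreated doublet, and held 0 to 2 UMIs of Mcpt8, 2 to 60 of Hdc, 2 to 14 of Gata2 and none of Kit. Cd200r3 had 4 to 10 UMIs in the 3 gonadotropin barcodes and 0 to 12 in the 3 untreated ones. Both barcodes called basophil, 3 of the 4 with Mcpt8 and Cpa3 and 5 of the 22 granule barcodes also had all 3 genes.

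The third kind had NK cell transcripts. The barcode of Gonadotropin mouse 1 had 11 UMIs of Cma1 and that of Untreated mouse 2 had 10, with 5404 and 10981 UMIs in all. All 7 NK cell markers had UMIs over the 2 barcodes, 96 in sum, among them 35 of the perforin gene Prf1 and 19 of Ncr1.

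Cma1 was therefore followed in the NK cell-like cells, named from Klra8, Ncr1, Prf1, Klrb1c and Gzmb among their leading genes; this comparison was added after the values were seen. Outside the called barcodes, 176 of 368 gonadotropin NK cell-like cells had a Cma1 UMI (47.8%, exact 95% interval 42.6 to 53.1%) and 81 of 185 untreated ones (43.8%, 36.5 to 51.3%), with at most 9 and 7 UMIs in a cell. In B cell-like cells, which should lack the gene, the share was 3.05% of 821 gonadotropin and 4.0% of 901 untreated cells. Median depths were 6773.5 UMIs in gonadotropin and 6702 in untreated NK cell-like cells, and 5720 and 5870 in the B cell-like cells of these libraries. The level was 146 CPM in gonadotropin and 127 CPM in untreated NK cell-like cells, against 5.51 and 7.32 CPM in gonadotropin and untreated B cell-like cells.

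The other mast proteases did not follow Cma1 in these cells. Of the UMIs of the 4 mast genes, Cma1 made up 96.8% in gonadotropin and 94.9% in untreated NK cell-like cells, against 56.2% and 43.8% in B cell-like cells and 60.5% and 50.03% in granule-type barcodes, gonadotropin before untreated in each. For Cpa3 the NK cell-like level was 2.62 CPM (gonadotropin) and 3.77 CPM (untreated), beside 2.45 and 3.66 CPM in the B cell-like cells. Mcpt4 had 4 and 3 UMIs and Tpsb2 2 and 1 UMIs in the gonadotropin and untreated NK cell-like cells. Mcpt8, Mcpt2, Fcer1a and Gata2 had none in either group.

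Cma1 in NK cell-like cells did not differ detectably between the groups. Per mouse it was 176, 70.7, 127, 165 and 123 CPM in gonadotropin mice 1 to 5 and 170.5, 103, 154, 108 and 129 CPM in untreated mice 1 to 5, on library sizes scaled by edgeR's TMM factors. The groups overlapped, with the highest and the lowest mouse both in the gonadotropin group. The log2 fold change, gonadotropin over untreated, was 0.11 ± 0.19 (SE, n = 5 mice each; adjusted p = 0.952, edgeR quasi-likelihood test with Benjamini-Hochberg adjustment over 5423 genes, of which 0.0738% were called at an adjusted p of 0.05, 0.0369% higher and 0.0369% lower in gonadotropin). The 31 to 130 gonadotropin and 25 to 59 untreated NK cell-like cells per mouse set this precision. With the 2 barcodes of the third kind put back, it was 0.08 ± 0.19.

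Kit was also carried by NK cell-like cells, though by fewer. Outside the called barcodes 97 Kit UMIs lay in 38 of 368 gonadotropin cells (10.3%) and 28 UMIs in 16 of 185 untreated cells (8.65%), against 0.122% and 0.111% of B cell-like cells. Among gonadotropin NK cell-like cells Cma1 was found in 9 of 38 with a Kit UMI (23.7%, 11.4 to 40.2%) and in 167 of 330 without (50.6%, 45.1 to 56.1%). In untreated ones it was found in 4 of 16 (25.0%, 7.27 to 52.4%) and 77 of 169 (45.6%, 37.9 to 53.4%). The cells with Kit were the deeper ones, at medians of 8842.5 UMIs (gonadotropin) and 8351 (untreated) against 6654 and 6682. These are shares of cells and were not tested.

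Per mouse, Kit in NK cell-like cells was 24.7, 26.5, 38.4, 43.6 and 47.3 CPM in gonadotropin mice 1 to 5 and 0, 35.0, 24.0, 21.6 and 12.0 CPM in untreated mice 1 to 5. The groups overlapped, and the gene was too low there to pass edgeR's filter on low counts. With every gene tested its log2 fold change there was 0.81 ± 0.34 (adjusted p = 0.650, edgeR). ILC2-like cells, with Stab2, Il1rl1 and Arg1 among their leading genes, had Kit UMIs in 5 of 12 gonadotropin and 4 of 8 untreated cells. Cluster 4, led by Fn1 and Lyz2, had 15 Kit UMIs in 6 of 199 gonadotropin cells and 11 in 6 of 148 untreated cells.

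Most Hdc lay in neutrophil-like cells and little of it in mast barcodes. Of the Hdc UMIs of all barcodes, 9.65% lay in mast barcodes, and in the kept cells neutrophil-like cells, led by S100a8, S100a9 and Retnlg, held 486 UMIs in 71 of 75 gonadotropin cells (94.7%) and 181 UMIs in 29 of 36 untreated cells (80.6%). Hdc is on the neutrophil marker list, so its height in this cluster is a description. B cell-like cells had a Hdc UMI in 1.10% (gonadotropin) and 0.888% (untreated), with median depths of 5720 and 5870 UMIs against 3868 and 4235 in the neutrophil-like cells. Within these cells, Hdc was 2169, 764, 1375, 1514 and 3215 CPM in gonadotropin mice 1 to 5, on 6 to 29 cells each. It was 1290, 950, 354, 2046 and 1137 CPM in untreated mice 1 to 5, on 2 to 15 cells each. The means were 1807 ± 932 and 1155 ± 611 CPM (SD, n = 5 each), and the groups overlapped.

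A smaller source of Hdc was cluster 9, a mixed cluster of 159 kept cells, 144 of them without a call. Over all 159, called barcodes included, its leading genes were Cpa3, Cma1, Mcpt4 and Tpsb2 together with cycling genes such as Mki67 and Top2a. Its uncalled cells are described here. They had 145 Hdc UMIs in 5 cells, 13.9% of those in kept cells, and 29 of 94 Gata2 UMIs in 5 cells. Those 5 are the tagged barcodes with Fcer1a, Gata2 and Hdc described above.

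**Figure D3:**
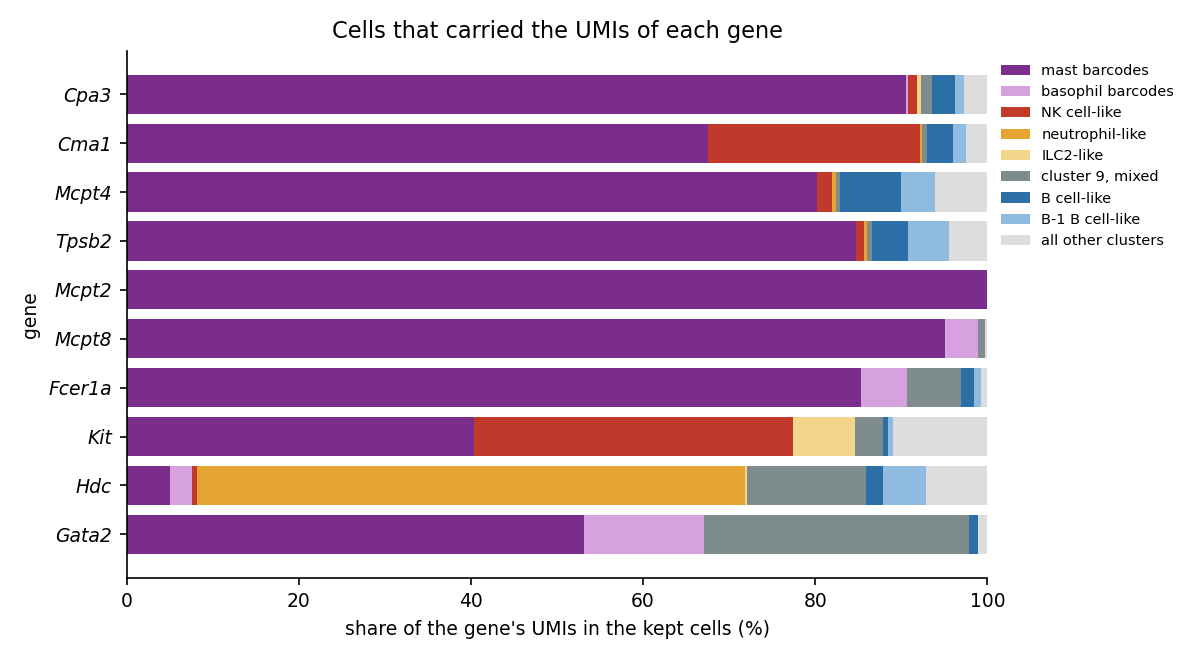
Share (x axis, %) of the UMIs of each gene (rows) in the 4918 kept cells that lay in mast barcodes, basophil barcodes and the clusters of other cells. Mast barcodes hold 90.5% of Cpa3 and all of Mcpt2, NK cell-like cells hold 24.6% of Cma1 and 37.1% of Kit, and neutrophil-like cells hold 63.8% of Hdc.

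The share of UMIs that lay in mast barcodes differed among the 10 genes. Cpa3, Cma1, Mcpt4 and Tpsb2 made the mast call, so their shares are partly set by the rule and are a description. Over all 6468 barcodes, mast barcodes held 100% of 152 Mcpt2 UMIs, 94.4% of 376 of Mcpt8, 89.0% of 1507 of Cpa3, 87.2% of 509 of Tpsb2, 84.2% of 691 of Mcpt4, 78.5% of 158 of Fcer1a, 72.7% of 3089 of Cma1, 48.7% of 119 of Gata2, 36.1% of 415 of Kit and 9.65% of 1347 of Hdc. The first shares rest on few cells, since 1 barcode held 100% of the Mcpt2, 68.4% of the Mcpt8 and 40.5% of the Cpa3 UMIs. Of the Mcpt8 UMIs, 355 lay in the 4 barcodes with Mcpt8 and Cpa3 and 0 in the granule type. Cpa3, Mcpt4 and Tpsb2 were also found in few other cells, with a UMI in 1.46%, 0.487% and 0.609% of gonadotropin and 2.11%, 2.44% and 0.999% of untreated B cell-like cells. For Mcpt4 the exact intervals of these shares were 0.133 to 1.24% in gonadotropin and 1.54 to 3.67% in untreated cells. They count cells pooled over the mice of a group and cover counting error only. Because the spread between mice is left out, the gap between these intervals is no test of a group difference. The shares were not compared over mice.

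Detection was read in all barcodes. Of single-hashtag barcodes, Cma1 had a UMI in 245 of 2491 gonadotropin (9.84%) and 196 of 2540 untreated (7.72%), and Hdc in 130 (5.22%) and 112 (4.41%). Kit was found in 62 gonadotropin (2.49%) and 44 untreated (1.73%) barcodes, Cpa3 in 49 (1.97%) and 72 (2.83%), Mcpt4 in 26 (1.04%) and 64 (2.52%), and Tpsb2 in 26 (1.04%) and 43 (1.69%). Fcer1a was found in 12 and 13, Gata2 in 7 and 9, Mcpt8 in 6 and 2, and Mcpt2 in 0 and 1. A count of 0 in 2423 kept gonadotropin cells allows a share of cells with a Mcpt2 UMI of up to 0.124%.

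Hashtag doublets, which are deeper (medians of 15764 gonadotropin and 13473 untreated UMIs), had these genes at the following shares. Cma1 was found in 6.20% of 693 gonadotropin and 6.26% of 655 untreated doublets, Hdc in 6.06% and 4.12%, Kit in 2.89% and 2.14%, Cpa3 in 2.45% and 3.21% and Mcpt4 in 1.01% and 2.75%. Doublets held 3 granule-type barcodes, 1 gonadotropin and 2 untreated, of 2970, 2170 and 2336 UMIs. After each kept cell was thinned to 2000 UMIs, which left out 67 gonadotropin and 36 untreated cells, Cma1 stood at 4.97% of gonadotropin and 3.17% of untreated cells, Hdc at 3.23% and 1.75%, Kit at 1.27% and 0.651%, and Mcpt4 at 0.382% and 0.691%. Cpa3 changed its order, at 0.976% of gonadotropin and 0.813% of untreated thinned cells against 1.94% and 2.61% before thinning. Thinning kept 4 of 7 gonadotropin and 5 of 8 untreated mast barcodes, the others being shallower.

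The share of mast barcodes was then compared between groups, to ask whether gonadotropin changed how many mast cells were recovered. Among kept cells there were 1, 1, 0, 4 and 1 in gonadotropin mice 1 to 5 and 0, 2, 1, 0 and 5 in untreated mice 1 to 5. The barcode of Gonadotropin mouse 1 and 1 of those of Untreated mouse 2 were of the third kind, with NK cell transcripts. Cells per mouse were 563, 378, 290, 828 and 364 in the gonadotropin group and 505, 650, 318, 296 and 726 in the untreated group. The share was 0.240 ± 0.175% in gonadotropin and 0.262 ± 0.285% in untreated mice (SD, n = 5 each), a difference of -0.0222 percentage points (p = 0.881, exact two-sided permutation test; adjusted over the mast and basophil shares, p = 1). Every mouse's exact interval overlapped those of the others. For 0 of 290 cells (Gonadotropin mouse 3) and 0 of 505 (Untreated mouse 1) the exact upper limits were 1.26% and 0.728%. Allowing 3 counts for a count of 0 gives 1.03% and 0.594%. Leaving out barcodes with Cma1 alone, a rule added after the values were seen, left 6 gonadotropin and 7 untreated barcodes. The share was then 0.204 ± 0.206% in gonadotropin and 0.231 ± 0.287% in untreated mice (SD; p = 0.905, exact permutation test). The sign depended on the minimum: at 5 UMIs, where more cells with Cma1 alone enter, the share was 0.826% in gonadotropin and 0.532% in untreated mice (p = 0.373, exact permutation test).

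Counting every single-hashtag barcode of the granule type regardless of the cell filter, a rule added after the values were seen, gave 6 gonadotropin and 12 untreated barcodes. Gonadotropin mouse 4 had 5 and Gonadotropin mouse 2 had 1, while Untreated mouse 5 had 7, Untreated mouse 3 had 4 and Untreated mouse 2 had 1. The other 5 mice, 3 gonadotropin and 2 untreated, had 0. The share was 0.169 ± 0.262% in gonadotropin and 0.467 ± 0.583% in untreated mice (SD, n = 5 each; p = 0.365, exact permutation test). Basophil barcodes made up 0.0529 ± 0.118% and 0.0308 ± 0.0688%, on 1 barcode each (p = 1, exact permutation test). With 5 mice per group the test can reach a p of 0.00794, but there were 0 to 5 kept mast barcodes per mouse. For the basophil share so low a p was out of reach, since all but 1 mouse of each group had 0. That test therefore cannot decide whether the groups differed.

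Over all kept cells of a mouse, none of the 10 genes passed the test between gonadotropin and untreated mice. Of the 10, 5 passed the filter on low counts, and 0 of these 5 were called at an adjusted p of 0.05, where 9.12% of the 11266 genes tested were called (4.97% higher and 4.15% lower in gonadotropin). In such sums, more carrier cells and more RNA per cell cannot be told apart. All 5 without a test (Tpsb2, Mcpt2, Mcpt8, Fcer1a and Gata2) were too low, and with every gene tested 0 of 10 were called either (adjusted p of 0.0669 for Tpsb2, the lowest, to 0.889 for Gata2). DESeq2 called 0 as well, and at an unadjusted p under 0.05 the filtered fit had 0 of 5 members and 2769 of all genes. The CPM of the groups overlapped for all 10 genes, whereas they did not for 4.98% of 21790 genes with a UMI (2.71% lower in gonadotropin).

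**Figure D4:**
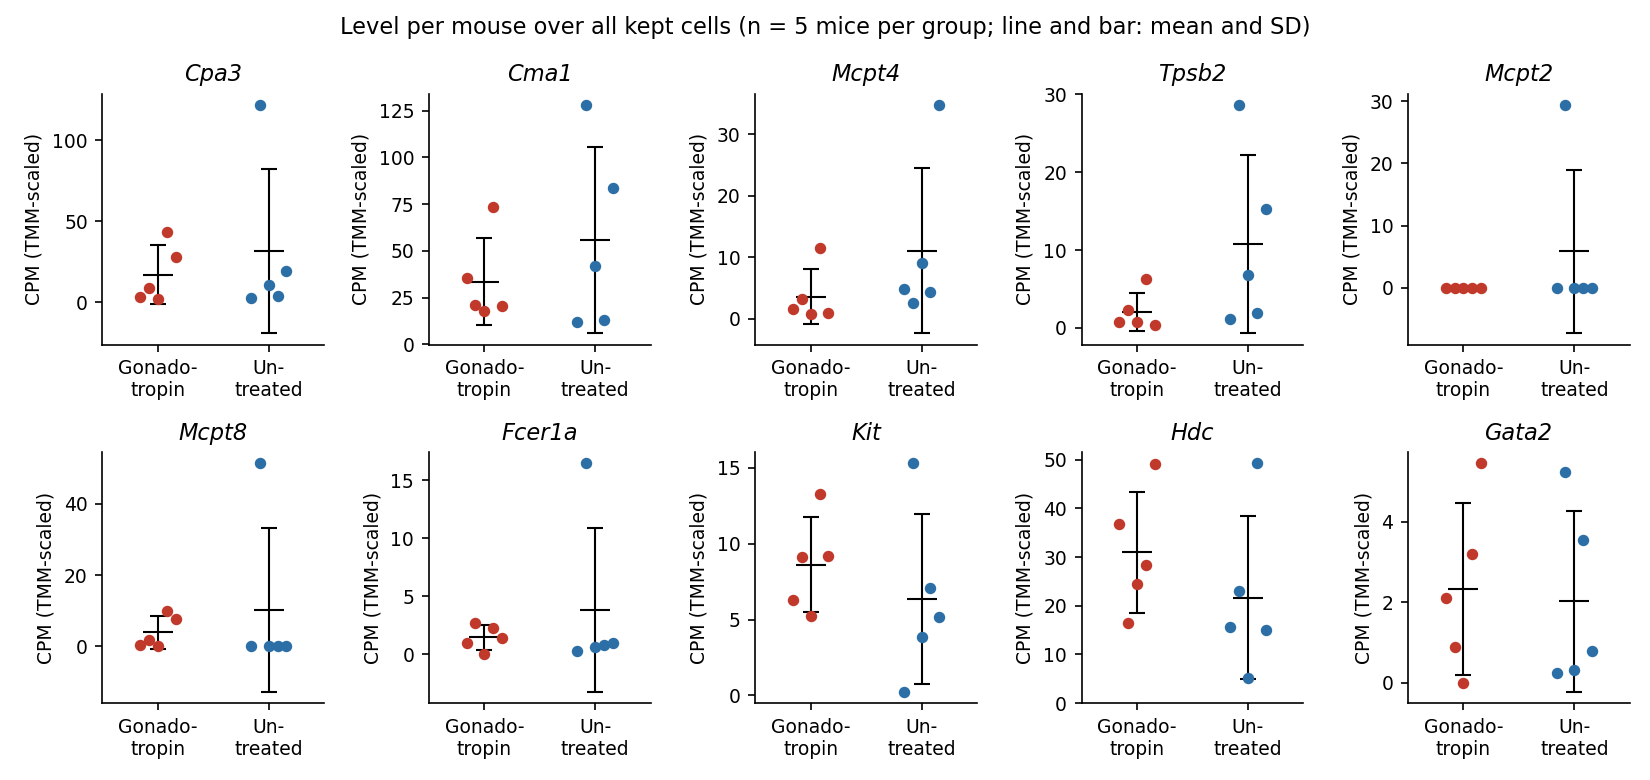
CPM (TMM-scaled) of each of the 10 genes over all kept cells of each mouse (points), gonadotropin left and untreated right, with mean and SD (n = 5 mice each). The groups overlap in every panel, and Untreated mouse 2 stands above all other mice for Cpa3, Cma1, Tpsb2, Mcpt2, Mcpt8, Fcer1a and Kit.

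Among the proteases, Cpa3 had 3.27, 8.80, 2.25, 43.5 and 28.2 CPM in gonadotropin mice 1 to 5 and 2.90, 122, 10.6, 3.95 and 19.6 CPM in untreated mice 1 to 5. Most of the 122 CPM of Untreated mouse 2 came from its barcode with all 10 genes. The log2 fold change was -0.84 ± 0.88 (SE; adjusted p = 0.614, edgeR), and 1.08 ± 0.70 without that barcode, a change of sign.

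Cma1 had 35.3, 20.8, 18.0, 73.3 and 20.4 CPM in the gonadotropin mice and 12.1, 128, 41.8, 13.0 and 83.8 CPM in the untreated mice, in the same order. The high values lie in both groups, in the mice with most mast barcodes. Its log2 fold change was -0.69 ± 0.57 (adjusted p = 0.497, edgeR), and 0.04 ± 0.53 without the richest barcode.

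Mcpt4 had 1.64, 3.23, 0.751, 11.4 and 1.02 CPM in the gonadotropin mice and 4.84, 2.51, 9.01, 4.34 and 34.7 CPM in the untreated mice. It was the lowest in 3 gonadotropin mice and the highest in Untreated mouse 5, which had 5 kept granule barcodes. Its log2 fold change was -1.42 ± 0.75 (adjusted p = 0.270, edgeR). It moved to -0.23 without Untreated mouse 5 and to -2.76 without Gonadotropin mouse 4 (adjusted p = 0.0818, edgeR).

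Tpsb2 had 0.701, 2.35, 0.751, 6.27 and 0.340 CPM in the gonadotropin mice and 1.21, 28.6, 6.76, 1.97 and 15.2 CPM in the untreated mice. Mcpt8 had UMIs in 4 gonadotropin mice (at most 10.04 CPM, in mouse 4) and in 1 untreated mouse (51.3 CPM, in mouse 2). These levels rest on single barcodes, since Untreated mouse 2 had 257 of its 265 Mcpt8 UMIs in 1 of them.

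Of the receptors, Kit had 6.31, 9.09, 5.26, 13.2 and 9.19 CPM in the gonadotropin mice and 0.242, 15.3, 3.86, 7.11 and 5.19 CPM in the untreated mice. The lowest and the highest mouse were both untreated, and the log2 fold change was 0.46 ± 0.52 (adjusted p = 0.650, edgeR). It was 1.15 ± 0.43 without the richest barcode (adjusted p = 0.111, edgeR), 1.16 without Untreated mouse 2, 0.14 without Untreated mouse 1 and 0.21 without Gonadotropin mouse 4. Fcer1a had 0 to 2.64 CPM in the gonadotropin mice and 0.242 to 16.4 CPM in the untreated mice, the highest being Untreated mouse 2. Gata2 had 0 to 5.44 CPM and 0.242 to 5.22 CPM in gonadotropin and untreated mice.

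Hdc had 36.7, 16.4, 24.4, 28.3 and 49.0 CPM in the gonadotropin mice and 15.7, 23.0, 5.15, 49.3 and 15.1 CPM in the untreated mice. Apart from Untreated mouse 4, the untreated mice were at or below 23.0 CPM. The log2 fold change was 0.58 ± 0.41 (adjusted p = 0.424, edgeR).

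With mast and basophil barcodes left out, 0 of the 4 members that passed the filter were called, where 9.43% of 11269 genes were (5.13% higher and 4.3% lower in gonadotropin). At an unadjusted p under 0.05 there were 2 members, Kit and Cma1, and 2780 of all genes, and DESeq2 called 0 members. Cma1 was then 32.7, 7.01, 17.9, 25.9 and 20.5 CPM in gonadotropin mice 1 to 5 and 12.1, 14.5, 14.6, 13.0 and 12.0 CPM in untreated mice 1 to 5. It was above every untreated mouse in 4 of the 5 gonadotropin mice and below them in Gonadotropin mouse 2, with a log2 fold change of 0.70 ± 0.28 (adjusted p = 0.139, edgeR). Without Gonadotropin mouse 2 it was called, at 0.91 ± 0.16 (adjusted p = 0.00536, edgeR). NK cell-like cells made up 18.1%, 8.20%, 16.9%, 15.7% and 15.7% of kept cells in gonadotropin mice 1 to 5 and 4.95%, 9.23%, 9.12%, 8.78% and 6.34% in untreated mice 1 to 5. The part of this share in the Cma1 level was not tested. Within NK cell-like cells the log2 fold change of Cma1 was the 0.11 given above.

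Kit outside the called barcodes was 6.31, 7.59, 5.22, 6.45 and 8.20 CPM in the gonadotropin mice and 0.242, 4.11, 2.60, 7.08 and 2.52 CPM in the untreated mice. The untreated mice other than mouse 4 were below every gonadotropin mouse, and the log2 fold change was 1.12 ± 0.42 (adjusted p = 0.119, edgeR). Hdc there was 36.7, 15.2, 24.2, 27.8 and 48.9 CPM in the gonadotropin mice and 15.7, 13.3, 4.55, 49.2 and 12.6 CPM in the untreated mice, with a log2 fold change of 0.78 ± 0.45 (adjusted p = 0.311, edgeR). Without Untreated mouse 4 both passed the threshold, at 1.48 ± 0.40 for Kit (adjusted p = 0.0447, edgeR) and 1.36 ± 0.33 for Hdc (adjusted p = 0.0293, edgeR). Beside Hdc, neutrophil-like cells made up 2.84%, 3.97%, 3.10%, 3.50% and 1.65% of kept cells in gonadotropin mice 1 to 5 and 1.78%, 2.31%, 0.629%, 1.69% and 0.689% in untreated mice 1 to 5. The part of these cell shares and barcodes in the results was not tested.

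Mcpt4 outside the called barcodes was low and spread over 9 of the 12 clusters. It was 1.64, 0.292, 0.746, 0.981 and 1.02 CPM in gonadotropin mice 1 to 5 (1 to 7 UMIs each) and 4.85, 1.76, 1.95, 4.33 and 2.05 CPM in untreated mice 1 to 5 (6 to 20 UMIs each). The groups did not overlap, which held for this member of the 9 with UMIs there, and, in the same direction, for 2.92% of 21743 genes with a UMI (5.06% in either direction). It did not pass the filter, and with every gene tested its adjusted p was 0.0527 (edgeR, log2 fold change -1.55 ± 0.45). In B cell-like cells, Mcpt4 had 4 UMIs in 821 gonadotropin and 24 UMIs in 901 untreated cells, or 0.816 and 4.18 CPM. Granule-type barcodes of the untreated library held 385 UMIs of the gene in 14 barcodes, against 193 in 8 of the gonadotropin library. Medians per barcode were 25.5 (untreated) and 24.5 (gonadotropin) UMIs. The part of free RNA in the low levels outside the called barcodes was not tested.

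**Figure D5:**
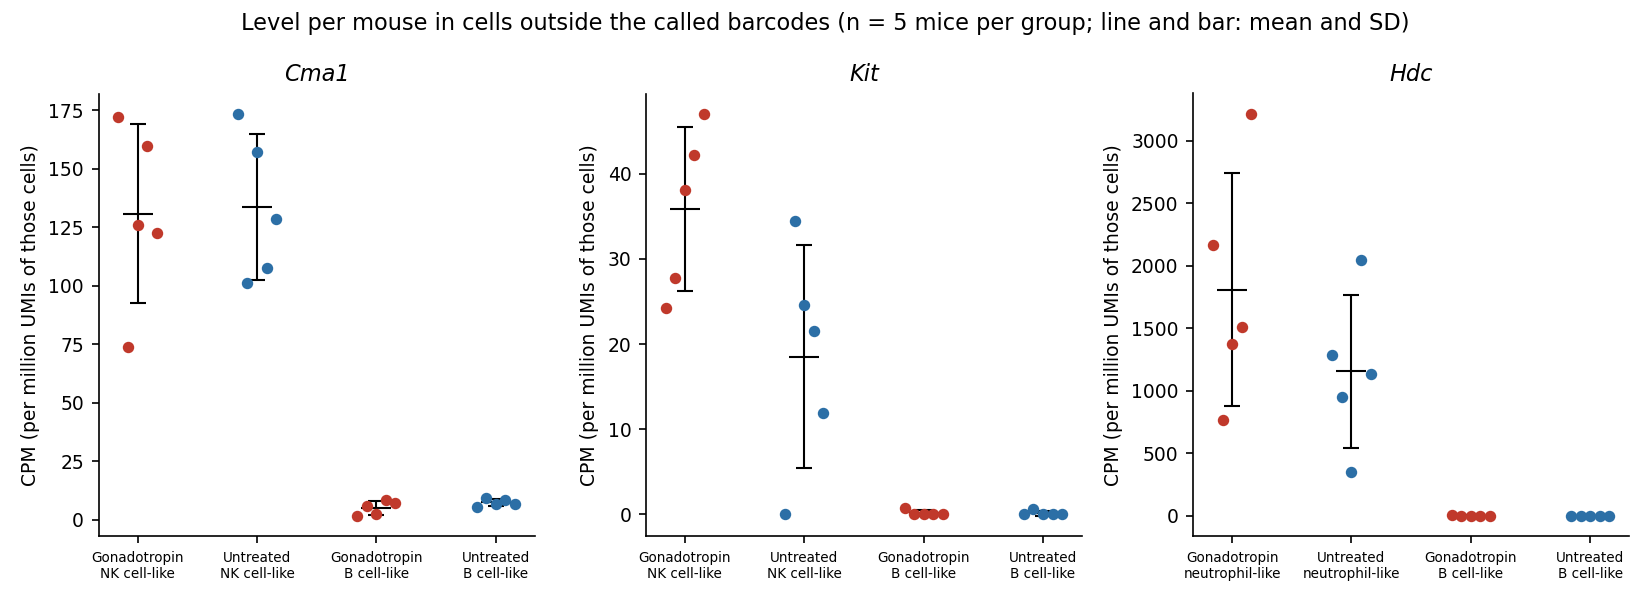
CPM (per 1e6 UMIs of the cells named) per mouse outside the called barcodes (points, with mean and SD, n = 5 mice each) for Cma1 and Kit in NK cell-like and B cell-like cells and for Hdc in neutrophil-like and B cell-like cells. Cma1 lies between 74.0 and 174 CPM in NK cell-like cells of every mouse and below 10 CPM in B cell-like cells, and gonadotropin and untreated mice overlap in each carrier.

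Other genes of mast cells and basophils were read from 9 lists. Of 8 other granule proteases, 2 passed the filter and both rose, against 9.12% of all genes called. Gzmb, a cytotoxic granule protease, rose by 1.18 ± 0.31 on the log2 scale (adjusted p = 0.0333, edgeR), and the lysosomal protease gene Ctsd by 0.74 ± 0.13 (adjusted p = 0.00493, edgeR). Of the UMIs of Gzmb 170 of 3922 lay in the 4 barcodes with Mcpt8 and Cpa3 and 0 in granule-type ones. Of those of Ctsd, 17 of 11547 lay in granule-type barcodes. Gzmb is also an NK cell marker. The NK cell-like shares given above were higher in 4 of the 5 gonadotropin mice than in any untreated mouse. The part of these shares in the rise of Gzmb was not tested. Ctsg, Tpsg1, Tpsab1 and Cma2 had 30, 21, 5 and 5 UMIs in the whole table, and Mcpt1 and Mcpt9 had none.

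Of 11 IgE receptor and signalling genes, 10 were tested, 3 rose and 1 fell. Of all genes tested, 4.97% were called higher and 4.15% lower in gonadotropin. Fcer1g, the signalling chain of the receptor, rose by 0.74 ± 0.15 on the log2 scale (adjusted p = 0.00979, edgeR), but 185 of its 38438 UMIs were in granule-type barcodes. The adaptor gene Gab2 (0.79 ± 0.13) and the kinase gene Fyn (0.43 ± 0.11) were the others that rose, and the kinase gene Btk fell (-0.29 ± 0.08). Granule-type barcodes held 3 of 7490 Gab2, 6 of 11290 Fyn and 7 of 7524 Btk UMIs. Ms4a2, the beta chain of the receptor, had 85 UMIs, 18 of them in 10 of the 22 granule-type barcodes, 24 in the 4 with Mcpt8 and Cpa3 and 14 in the 2 basophil barcodes.

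Of 6 lipid mediator genes all were tested and 1 rose, Alox5ap of leukotriene synthesis (0.84 ± 0.22, adjusted p = 0.0335, edgeR). Of 9 transcription factor genes 7 were tested and 1 rose, Zeb2 (0.66 ± 0.12). Beside these lists, 4.97% of all genes tested were called higher in gonadotropin. Granule-type barcodes held 7 of 11057 Alox5ap and 28 of 44398 Zeb2 UMIs. None passed among the 3 tested of 6 other basophil genes, 4 of 5 of Kit signalling, 5 of 7 of amine and heparin storage, 5 of 10 other mast cell receptors and 1 of 5 of histamine receptors and breakdown. The median log2 fold change ran from 0.04 (amine and heparin storage) to 0.96 (the 2 granule proteases), against -0.003 for all genes tested. Srgn, the proteoglycan core of granules, had 237 UMIs in 22 of 22 granule-type barcodes among 53718 in all.

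The genes most alike to the members were those with the largest share of their UMIs in mast barcodes, among genes with at least 20 UMIs. They were Mrgprb1 (40 of 43 UMIs, in 17 of 28 barcodes), Meis2 (33 of 36, in 13), Tph1 (83 of 92, in 21), Hs6st2 (55 of 62, in 10) and Ctsg (25 of 30, in 5). Of these, Hs6st2 and Ctsg came mostly from the 4 barcodes with Mcpt8 and Cpa3, with 41 of 62 and 21 of 30 UMIs, whereas 33 UMIs of Meis2 and 78 of Tph1 were in granule-type barcodes. For the 2 basophil barcodes the genes were Adamtsl1 (6 of 27 UMIs), Csrp3 (4 of 24), Ms4a2 (14 of 85), Igfbp7 (8 of 68) and Itga2b (7 of 62), all found in both. These shares rest on 28 and 2 barcodes and carry no test.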

How the data were processed

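The authors deposited raw UMI counts, not normalized, with the authors' hashtag calls giving class and mouse of each barcode. Per the submitters' processing notes, the build was mm10 and the tools bcl2fastq, Cell Ranger and Seurat, with no versions. The 5 mice of a group share 1 library, and the mouse was the replicate. The lowest deposited barcode total was 501 UMIs, so shallower barcodes are not analysed here. Another 4 per-barcode columns were not used. The files give symbols only; positions and promoters are RefSeq's (GRCm38.p6, 8 of 10 members matched in the promoter table).

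Kept cells were clustered with scanpy 1.11.5 (Leiden, igraph 0.11.9) and named from marker lists. No doublet caller was run beyond the hashtags. Counts summed per mouse were tested with edgeR 4.0.16 in R 4.3.3 (TMM, filterByExpr, quasi-likelihood F test, Benjamini-Hochberg over all genes tested) at an adjusted p of 0.05, with DESeq2 1.42.0 as an alternative, and the edgeR step was tested on simulated data. CPM per mouse over all cells, outside the called barcodes and in NK cell-like cells (text) are TMM-scaled; values per cluster are per 1e6 UMIs of its cells. Shares were compared by exact permutation over mice. Intervals are exact Clopper-Pearson at 95%, a count of 0 allows 3 counts, and both cover counting error only.

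Members and lists were chosen with earlier results of these data known. Named genes are the 10 members, list genes with most UMIs in called barcodes, the 5 genes most concentrated in mast and in basophil barcodes, and markers of other cells. The kinds of mast barcodes and the NK cell-like comparison were chosen after the values were seen.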

Additional observations from a re-analysis of the deposited data

Results flagged for a closer look

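In groups of 5 mice, a mouse was singled out when its gap to the nearest other mouse, divided by the range of the group, was above Dixon's critical value. This held in 8 of 26 groups examined. Chance gives about 1 in 20 for continuous values, but 4 of the 8 (both basophil shares, and Mcpt2 and Mcpt8 in untreated mice) had 4 mice at 0, where any value above 0 meets the criterion, so the number of flags is not read against chance. Over all kept cells Untreated mouse 2 stood above the other untreated mice for Cpa3 (121.7 CPM), Mcpt8 (51.3 CPM), Mcpt2 (29.4 CPM) and Fcer1a (16.4 CPM), 4 flags that share the barcode with all 10 genes. Mcpt4 was high in Gonadotropin mouse 4 (11.4 CPM) and in Untreated mouse 5 (34.7 CPM), the mice with 3 and 5 kept granule-type barcodes. The basophil share was high in Gonadotropin mouse 2 (0.265%) and in Untreated mouse 2 (0.154%), on 1 barcode each where the other mice had 0.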

How the results depend on the processing

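No paired analysis was possible because mouse numbers are names within each pool and pair no mice across groups. Over all kept cells 0 members were called under each alternative run. Outside the called barcodes, 1 was called without Gonadotropin mouse 2 (Cma1) and 2 without Untreated mouse 4 (Kit and Hdc), a range of 0 to 2 over mice left out, and 0 otherwise; over mice left out the log2 fold change there ran from 0.49 to 0.91 for Cma1 (adjusted p from 0.00536 to 0.300), 0.81 to 1.48 for Kit (0.0447 to 0.228) and 0.56 to 1.36 for Hdc (0.0293 to 0.525). Over all kept cells it ran from -2.76 to -0.23 for Mcpt4, -1.26 to -0.16 for Cma1, 0.14 to 1.16 for Kit and 0.36 to 1.02 for Hdc. Cpa3 over all cells reversed to 1.08 without the richest barcode and to 0.86 without Untreated mouse 2 (-1.69 to 0.86 over mice left out), Cma1 to 0.0352 without that barcode, and Cpa3 outside the called barcodes to 0.15 without Gonadotropin mouse 4 (-0.48 to 0.15). Cma1 in NK cell-like cells ran from -0.0129 to 0.20 over mice left out, with adjusted p from 0.835 to 0.999. The difference in mast share reversed to 0.294 points at 5 UMIs, and ran from -0.0877 to 0.0845 over mice left out (reversed to 0.0378 without Gonadotropin mouse 3 and 0.0845 without Untreated mouse 5). That of the basophil share ran from -0.0308 (without Gonadotropin mouse 2) to 0.0529, and with no UMI of the 4 mast genes allowed there were 0 basophil barcodes. The causes were not tested. Depth limits these results, since the counts rest on 28 mast barcodes and the granule type had a median of 1550 UMIs.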
